A study of Mus musculus with 2 samples.

Results

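The genes described here are 10 markers of the integrated stress response and of endoplasmic reticulum (ER) stress, namely Atf3, Atf4, Atf6, Ddit3, Ppp1r15a, Herpud1, Xbp1, Ern1, Trib3 and Asns. They were taken as every probe set whose annotated gene symbol is exactly one of these names, which gave 25 of the 45037 non-control probe sets on the array and 10 of the 18193 named genes. Expression was measured on 2 oligonucleotide arrays, 1 of Miz1 knockout cells and 1 of wild-type (wt) cells, both from mice of the C57BL/6 background. The knockout mice carry Miz1-delta-POZ, a form of the zinc finger transcription factor Miz-1 without its POZ domain, and the comparison asks how loss of Miz-1 activity changes expression in DN3 thymocytes. These are immature T cell precursors, sorted as lineage-negative, CD44-negative and CD25-positive cells. Neither the age and sex of the mice, nor the cells in which the allele was deleted, nor the number of animals behind each array is stated in the sources used here. With 1 array per genotype no difference could be tested, and every value below describes these 2 arrays.

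In the integrated stress response, kinases that sense stress phosphorylate the translation factor eIF2. General translation falls, while the mRNA of the transcription factor ATF4 is translated more, and ATF4 then raises genes such as Ddit3, Trib3, Asns and Atf3. In the ER, unfolded proteins activate the sensors PERK (Eif2ak3), IRE1 (Ern1) and ATF6, and IRE1 splices the mRNA of XBP1 into its active form. Much of this control acts on translation, splicing and protein cleavage, which a measure of mRNA level does not show.

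A value below the floor, the median signal of 394 over all non-control probe sets of both arrays, was raised to the floor before the log2 ratio of knockout over wild type was taken. A probe set is called measured if its mean signal over both arrays is above the floor. Where the dimmer array lies under the floor, a fold is a lower bound and is given as at least that fold. Of the 25 probe sets, 15 were measured, covering 8 of the 10 genes, and 12 of the 15 were above the floor on both arrays. Of the 15, 2 passed 2-fold on the higher side in knockout cells, 1 each of Ppp1r15a and Herpud1, and 0 on the lower side. Among all 21897 measured probe sets, 8.17% were 2-fold or more higher and 5.43% were 2-fold or more lower. At those shares, 1.23 higher and 0.814 lower would fall among 15 probe sets, so the counts alone do not set these genes apart. Over all probe sets 60.1% of the calls were on the higher side, a share of 41.9% after centring both arrays on their medians and of 45.5% after loess normalization. Centring on the medians moved the median of all measured probe sets by -0.16 on the log2 scale, and ratios measured on both arrays would move by about as much. The median log2 ratio of the 15 measured probe sets was 0.51, against 0.04 for all measured probe sets. Of the 15, 11 were positive (73.3%), against 52.4% of all measured probe sets. Xbp1 alone supplies 4 of the 15, and without it the median of the remaining 11 was 0.39.

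**Figure D1:**
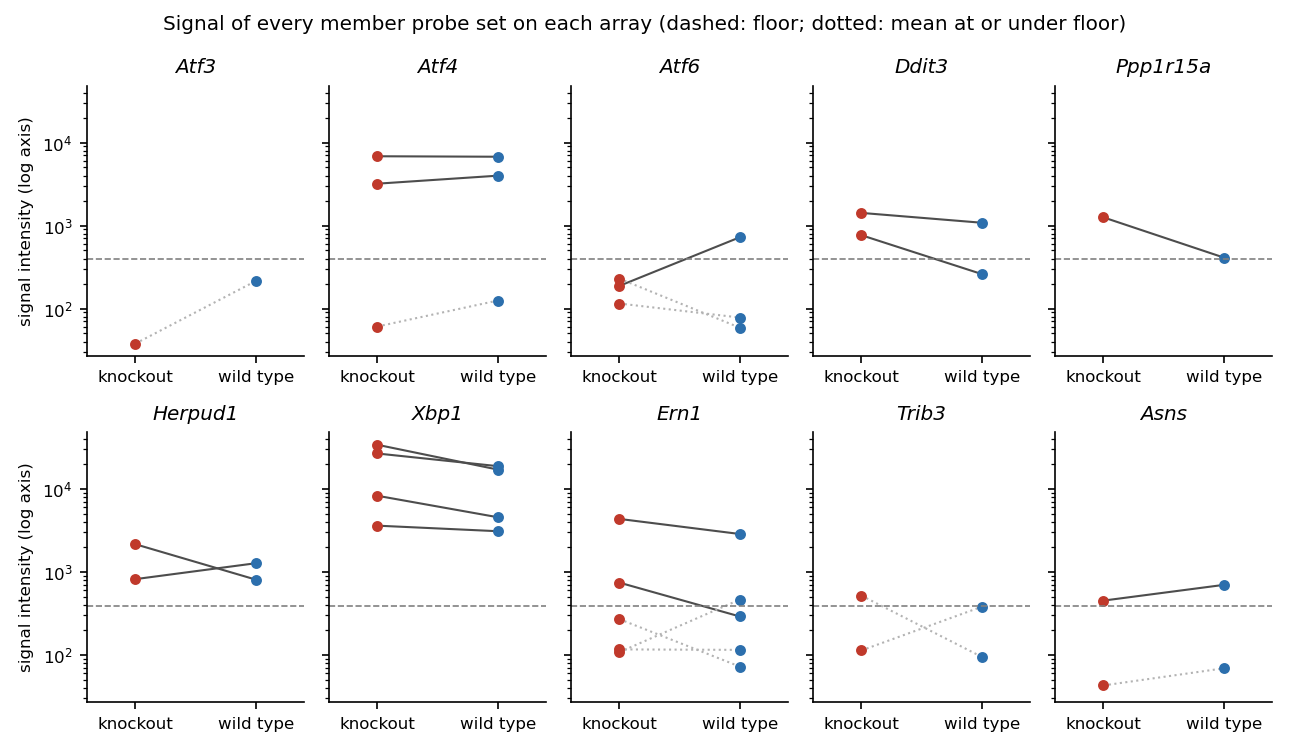
Signal intensity (log axis) of every probe set of the 10 genes on the knockout array (left, red) and the wild-type array (right, blue), with a line joining the 2 values of a probe set. The dashed line is the floor of 394, and dotted lines mark the 10 probe sets whose mean lay at or under it. All 4 Xbp1 lines fall to the right, while the 2 Herpud1 lines cross.

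Several of these genes carry a stress-response element close to the start of transcription. Promoters of 300 bases, 250 before and 50 after the start, were taken from RefSeq (GRCm38.p6) for 9 of the 10 genes, all but Atf6. Both strands were searched for 5 elements. The C/EBP-ATF response element (CARE, TGATGNAA), which ATF4 binds with C/EBP partners, was found in 4 of the 9, Atf3, Herpud1, Trib3 and Asns, and in 3.97% of all 32851 promoters in the table. The ER stress response element II (ERSE-II, ATTGG then 1 base then CCACG), bound by ATF6 with the factor NF-Y and also by XBP1, was found only in Herpud1 among the 9, and in 0.0365% of all promoters. The cAMP response element (CRE, TGACGTCA, which reads the same on both strands) was found in Ppp1r15a and in 1.79% of all promoters. The first ER stress response element (ERSE, CCAAT then 9 bases then CCACG) and the core of the unfolded protein response element (UPRE, TGACGTGG) were in 0 of the 9 and in 0.119% and 0.676% of all promoters. A match describes letters in this window and does not show binding.

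The matches are shown with 12 bases on either side, because they are the searched elements found near the members' start sites. Those of Herpud1 and Ppp1r15a, the 2 genes with a 2-fold higher probe set, come first. Whether a match bears on the readings was not tested. Sequences run 5′ to 3′ on the gene's strand and capitals mark the match.
Herpud1 (chr8:94386305-94386399, plus strand, CARE then ERSE-II): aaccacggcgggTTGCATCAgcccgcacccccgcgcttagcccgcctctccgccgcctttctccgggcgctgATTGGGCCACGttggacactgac
Ppp1r15a (chr7:45526261-45526292, minus strand, CRE): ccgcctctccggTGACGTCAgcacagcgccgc
Atf3 (chr1:191183424-191183455, minus strand, CARE): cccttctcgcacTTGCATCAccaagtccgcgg
Trib3 (chr2:152344027-152344058, minus strand, CARE): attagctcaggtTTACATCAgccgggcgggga
Asns (chr6:7693213-7693244, minus strand, CARE): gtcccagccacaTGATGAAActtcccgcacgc
The 2 Herpud1 matches begin at positions -112 and -52 from the start. The CARE of Herpud1, Atf3 and Trib3 lies on the other strand and so reads as its reverse complement. That of Trib3 begins at base 15 of the transcript.

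Ppp1r15a, also called GADD34, encodes the inducible subunit that brings protein phosphatase 1 to phosphorylated eIF2 and so ends the translational block. Its single probe set read 1254 in knockout cells and 411 in wild-type cells, 3.05-fold higher (log2 ratio 1.61). The wild-type value lay just above the floor. Only 1.38% of all measured probe sets had a higher ratio. Its constitutive counterpart Ppp1r15b read 7236 in knockout cells and 5320 in wild-type cells, a log2 ratio of 0.44.

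Herpud1 encodes an ER membrane protein with a ubiquitin-like domain that takes part in ER-associated degradation. Its brighter probe set read 2163 in knockout cells and 810 in wild-type cells, 2.67-fold higher (log2 ratio 1.42). The second probe set went the other way, with 820 in knockout cells and 1275 in wild-type cells, 1.55-fold lower (log2 ratio -0.64). The 2 ratios were 2.05 apart on the log2 scale. Of 2750 genes with exactly 2 measured probe sets, 1.67% differed by at least as much, and the median difference was 0.53. Where these probes lie in the transcript is not stated in the sources used, so no direction for Herpud1 as a gene follows from the 2 probe sets.

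Xbp1, the transcription factor gene whose mRNA IRE1 splices, was well above the floor by each of its 4 probe sets. They read 34115, 26784, 8292 and 3618 in the knockout, against 17144, 18848, 4571 and 3101 in the wild type in the same order. All 4 were higher in the knockout, by 1.99-fold, 1.42-fold, 1.81-fold and 1.17-fold, and none reached 2-fold in the deposited values. Those at 1.42-fold and 1.81-fold are probe sets of shared sequence (suffix _s_at). Those at 1.81-fold and 1.17-fold are annotated to the same sequence record, so the 4 readings may not be independent of each other. Of 416 genes with 4 measured probe sets, 13.9% had all 4 ratios above 0. Bright probe sets as a whole leaned the other way. In the brightest of 20 equal bins of mean signal, the median log2 ratio was -0.46 and the 90th percentile 0.43, against 0.99 and 0.51 for the 2 Xbp1 probe sets in that bin. The brightest Xbp1 probe set passed 2-fold after quantile normalization (2.53-fold) and after loess normalization (2.64-fold), where the probe set at 1.81-fold passed as well (2.01-fold). The spliced and unspliced forms could not be told apart here.

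Ern1, which encodes the sensor and ribonuclease IRE1, was also higher in the knockout by both measured probe sets of 5. The brighter read 4361 in knockout cells and 2870 in wild-type cells, 1.52-fold higher, and the dimmer read 745 and 291, at least 1.89-fold higher. Another probe set had a mean under the floor and pointed the other way, with 108 in knockout cells and 465 in wild-type cells. The other 2 were under the floor on both arrays.

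Atf6, the third ER sensor and a transcription factor released by cleavage, was measured by 1 of its 3 probe sets. That probe set read 187 in knockout cells and 721 in wild-type cells, at least 1.83-fold lower. It passed 2-fold with a floor at the lower quartile (3.85-fold) and after loess normalization (2.06-fold), and 91.9% of measured probe sets had a higher ratio. The other 2 read 229 and 115 in the knockout against 58.8 and 77.8 in the wild type, under the floor on both arrays.

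**Figure D2:**
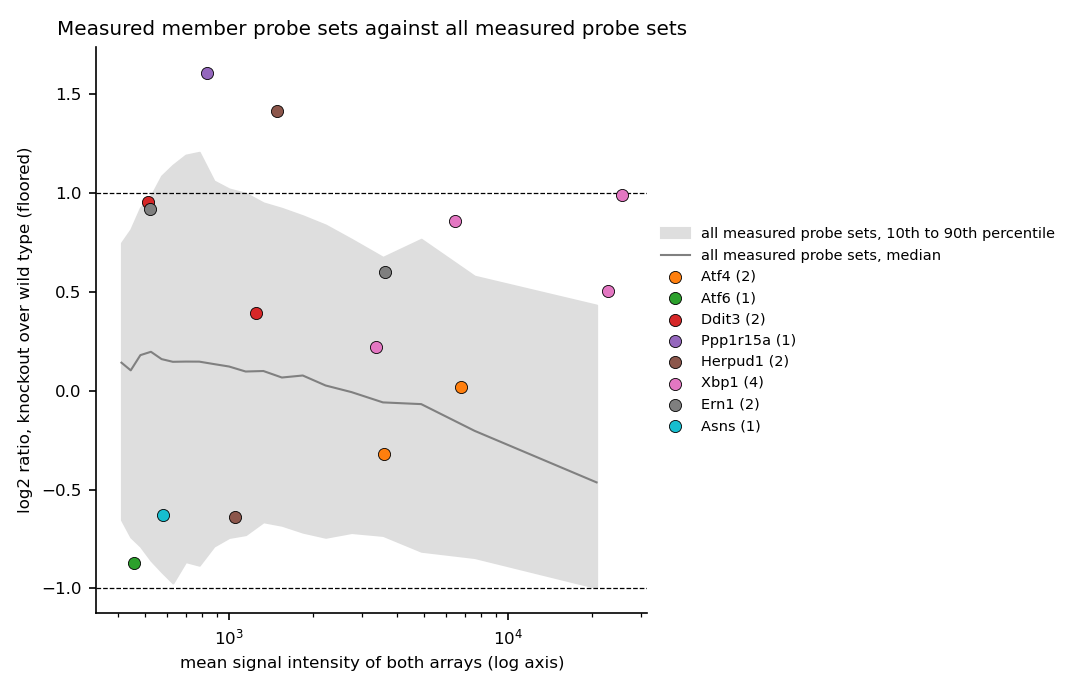
Log2 ratio of knockout over wild type (floored) against mean signal of both arrays (log axis) for the 15 measured probe sets of the 10 genes, coloured by gene, with the number of measured probe sets in brackets. The grey band spans the 10th to the 90th percentile of all measured probe sets in 20 bins of signal. The dashed lines mark 2-fold. Of the 15 points, 5 lie above the band (3 of Xbp1, 1 of Ppp1r15a and 1 of Herpud1), 1 lies below it (Atf6) and 9 lie inside.

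Atf4, the central transcription factor of the integrated stress response, read almost alike on both arrays. Its brightest probe set had 6827 in knockout cells and 6740 in wild-type cells, a log2 ratio of 0.02 whose sign turned to -0.14 when the arrays were centred on their medians. The second read 3191 in knockout cells and 3983 in wild-type cells, a log2 ratio of -0.32, and the third was under the floor on both. Ddit3 encodes CHOP, a bZIP factor that promotes death under prolonged stress. It read 1419 and 765 in the knockout against 1080 and 260 in the wild type by its 2 probe sets, 1.31-fold and at least 1.94-fold higher. The dimmer Ddit3 probe set was 2.94-fold higher with the floor at the lower quartile.

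The other members introduced above as raised by ATF4 were dim. Asns, which encodes asparagine synthetase, read 452 in knockout cells and 700 in wild-type cells by its measured probe set, 1.55-fold lower, and its second was under the floor on both arrays. Trib3 encodes a pseudokinase that restrains ATF4 and CHOP. Its 2 probe sets disagreed, with 520 and 113 in the knockout against 94.9 and 382 in the wild type, and neither had a mean above the floor. Atf3, a stress-induced bZIP repressor, read 37.7 in knockout cells and 214 in wild-type cells, under the floor on both arrays, so no fold is given. Of the members introduced above as raised by ATF4, Ddit3 read higher in the knockout by both probe sets. Asns read lower by its measured probe set, and Trib3 and Atf3 were not measured.

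Besides Ppp1r15a, the genes listed for eIF2, its kinases, its exchange factor and its phosphatase showed no 2-fold difference by their brightest probe sets. Each gene of the lists below was read by its brightest probe set. Of all 10770 genes measured in this way, 7.23% were 2-fold or more higher, 5.65% were 2-fold or more lower, and the median log2 ratio was 0.00. The 18 measured genes for the eIF2 kinases, eIF2 and its exchange factor eIF2B, and the phosphatase had a median of 0.00, with 0 past 2-fold in either direction. Eif2s1, an eIF2 subunit gene, had no probe set named for it alone. Eif2s3y, a Y-linked eIF2 gene outside this list, read 46.8 in knockout cells and 1433 in wild-type cells by 1 probe set. That is at least 3.64-fold lower, and its other probe set was under the floor on both arrays. The sexes of the 2 arrays differed, as given below. The kinase gene Eif2ak3 (PERK) read 1453 in knockout cells and 1456 in wild-type cells. Eif2ak4 (GCN2), which senses uncharged tRNA, read 657 in knockout cells and 685 in wild-type cells. Eif2ak1 (HRI), another eIF2 kinase gene, read 1469 in knockout cells and 855 in wild-type cells, a log2 ratio of 0.78. Its 4 measured probe sets ranged from 0.04 to 0.82. Eif2ak2 (PKR), which senses double-stranded RNA and is induced by interferon, read 2508 in knockout cells and 1582 in wild-type cells, a log2 ratio of 0.67, though its 3 measured probe sets ranged from -0.50 to 0.67.

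Other known ATF4 targets went both ways. Of 32 measured, 4 were 2-fold or more higher, 5 were 2-fold or more lower and 23 lay within 2-fold. The median was -0.22. Ddit4, an inhibitor of mTORC1, was 2.35-fold higher (3946 in knockout cells, 1680 in wild-type cells), and Atf5, a bZIP factor of the same response, was at least 2.33-fold higher (919 and 360). Pck2, the mitochondrial phosphoenolpyruvate carboxykinase, was at least 2.19-fold higher, and the glycine transporter gene Slc6a9 at least 2.69-fold higher, with a second probe set at a log2 ratio of -0.66. On the lower side, the bZIP factor gene Cebpb was 2.62-fold lower (747 in knockout cells, 1957 in wild-type cells). Among genes of serine synthesis and use, Psat1 was 2.17-fold lower (3018 in knockout cells, 6540 in wild-type cells), Shmt2 was 2.86-fold lower by a probe set whose 3 companions reached up to 0.28, and Phgdh had a log2 ratio of -0.52. Eif4ebp1, a translation repressor, was 2.51-fold lower, with its 3 probe sets from -1.33 to 0.93, and Slc7a5, which carries large neutral amino acids, differed by at least 2.06-fold in the same direction. Sesn2, a stress-induced inhibitor of mTORC1, had a log2 ratio of 0.79, while Chac1, a glutathione-degrading enzyme, and the cystine transporter gene Slc7a11 were under the floor on both arrays.

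**Figure D3:**
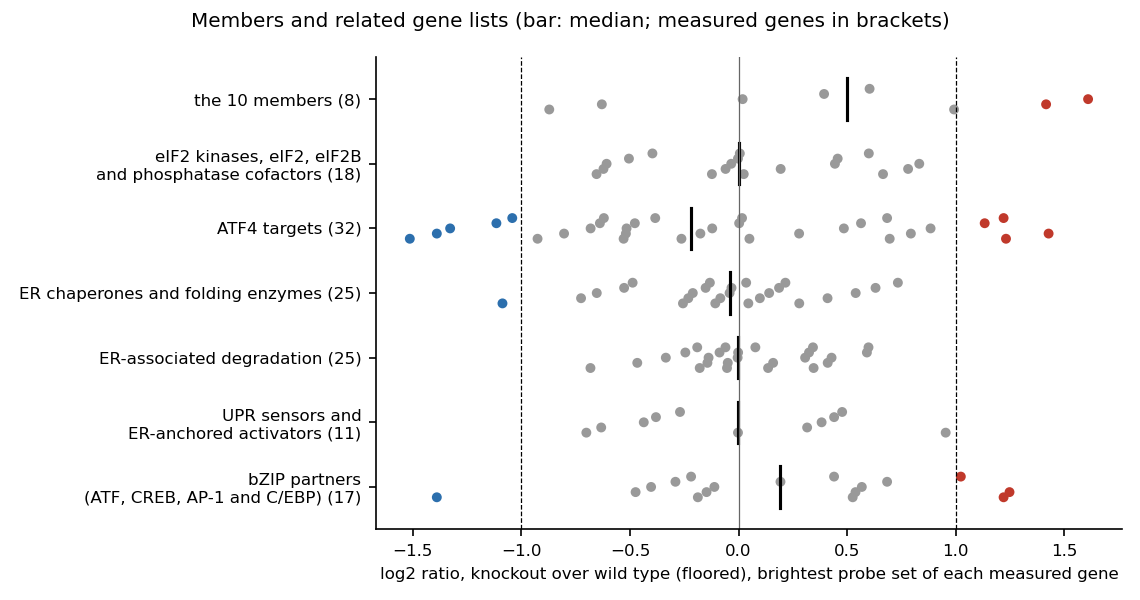
Log2 ratio of knockout over wild type (floored) for the brightest probe set of each measured gene, in the 10 members and in 6 related lists. Black bars are list medians, dashed lines mark 2-fold, red points lie at or above it and blue points at or below it. The median of the 8 measured members is 0.50, that of the ATF4 targets is -0.22 over 32, and those of the ER chaperones and of ER-associated degradation lie close to 0.

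The chaperones and folding enzymes of the ER, which ATF6 and XBP1 raise under ER stress, mostly differed by less than 2-fold by their brightest probe sets. Of 25 measured, 0 were 2-fold higher and 1 was 2-fold lower, with a median of -0.04. Hspa5 (BiP), the main ER chaperone, read 14723 in knockout cells and 10130 in wild-type cells, a log2 ratio of 0.54, although its 3 probe sets ranged from -0.25 to 0.54. Dnajb9, an XBP1 target and co-chaperone of BiP, read 1877 in knockout cells and 1212 in wild-type cells (0.63). Hsp90b1 (-0.11) and Sdf2l1 (-0.53) read lower. The gene past 2-fold was Txndc11, a thioredoxin domain protein, at 2.13-fold lower by 1 probe set and 0.71 on the log2 scale by the other. Pdia4, a protein disulfide isomerase, had a log2 ratio of 0.28 by its brightest probe set and 1.11 by the other.

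Genes for other components of ER-associated degradation, in which Herpud1 acts, differed by less than 2-fold when read by their brightest probe sets. Of 25 measured, 0 passed 2-fold in either direction, with a median of 0.00 and ratios from -0.68 to 0.60. Sel1l and Syvn1, the core of the HRD1 ubiquitin ligase, had log2 ratios of 0.34 and -0.34 by their brightest probe sets. The 4 measured Sel1l probe sets ranged from -1.31 to 0.48 and the 2 of Syvn1 from -0.34 to 0.62. Edem1, which hands over misfolded glycoproteins, read 13520 in knockout cells and 13562 in wild-type cells. Among 11 measured genes for other ER stress sensors, proteases and regulators, 0 passed 2-fold and the median was 0.00. Eif2ak3, given above, is counted here again. Ratios ran from -0.70 to 0.95, the highest that of Map3k5. Atf6b, the paralog of Atf6, had a log2 ratio of -0.38 and Mbtps1, the protease that cleaves ATF6 first, one of -0.44.

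Other bZIP factors, mainly of the ATF, CREB, AP-1 and C/EBP families, had 17 measured genes, with a median of 0.19. Of the 17, 3 were at least 2-fold higher, each with a wild-type value under the floor, and 1 was lower. Among all measured genes these shares were 7.23% and 5.65%. Batf was at least 2.38-fold higher (936 in knockout cells, 214 in wild-type cells) and Crem at least 2.03-fold higher (801 and 235). Atf5 and Cebpb, already given, complete the 4, since some genes stand in both lists. Cebpg, a partner of ATF4, had a log2 ratio of 0.68. Jun, Fos and Nfe2l2 had log2 ratios of -0.11, -0.19 and 0.19.

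Facts of the 2 arrays that bear on these readings are as follows. The targeted gene Zbtb17 read 1361 in knockout cells and 3042 in wild-type cells by its brighter probe set, and 610 and 47.6 by the other, whose positions relative to the deletion are not given. All 12 DN3 thymocyte markers with a probe set were measured, with a summed signal of 323103 in knockout cells and 233072 in wild-type cells. Of these, 3 passed 2-fold on the higher side, Il2ra (which encodes the sort marker CD25, 4.61-fold), Cd3g (2.17-fold) and Cd3d (2.14-fold), and 0 on the lower side. Among all measured genes 7.23% were 2-fold or more higher and 5.65% were 2-fold or more lower. The median log2 ratio of the 12 was 0.19, with 9 positive. Lower in the knockout were Cd5, Rag1 and Thy1, at log2 ratios of -0.60, -0.40 and -0.23. Plasma cells, in which Xbp1 is known to be high, and B cells were sought by 12 markers, of which 7 were measured. Their median log2 ratio was 0.54, with 4 of 7 positive. Mzb1 was 2.32-fold higher in the knockout, and Cd79b, Cd79a and Ms4a1 had log2 ratios of 0.90, at least 0.78 and 0.54. Cd22 was at least 2.02-fold lower, and Ighm was 2.49-fold lower by its brightest probe set, with its 5 measured probe sets from -1.31 to 0.54. Sdc1, the other measured marker, had a log2 ratio of -0.18. The plasma cell factor gene Prdm1 was under the floor on both arrays, as were Pax5 and Ebf1. Irf4 and Jchain had means under the floor but were above it on the knockout array. Irf4 read 538 in knockout cells and 103 in wild-type cells, and Jchain 449 and 200. The summed signal of the 12 was 25660 in knockout cells and 36088 in wild-type cells, and its direction turned without Ighm, with 14320 in knockout cells and 7880 in wild-type cells over the other 11. Of 15 myeloid markers 5 were measured, with a summed signal of 17193 in knockout cells and 9625 in wild-type cells over the 15. Of the 5, 3 were at least 2-fold higher (Lyz1, Lyz2 and Csf1r), against 7.23% of all measured genes. The 3 measured probe sets of Csf1r ranged from 0.05 to 1.37 on the log2 scale and the 2 of Lyz1 from 0.87 to 3.03. Adgre1 and Cst3, the other measured markers, had log2 ratios of -0.05 and 0.03. Of 13 thymic stromal markers 3 were measured, with 0 past 2-fold, a median of 0.69 and a summed signal of 8567 in knockout cells and 5264 in wild-type cells. Among them Epcam was 1.90-fold higher by the brighter of its 2 measured probe sets while the dimmer one stood at -0.20 on the log2 scale. Xist read 55300.0 in knockout cells and 423 in wild-type cells, while Y-linked Kdm5d read 36.7 in knockout cells and 1782 in wild-type cells, so the sexes differed. The part of other cells in the stress gene readings was not tested, and sex and genotype cannot be told apart. In bulk samples, a change in the share of a cell type and a change of RNA per cell cannot be told apart either.

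**Figure D4:**
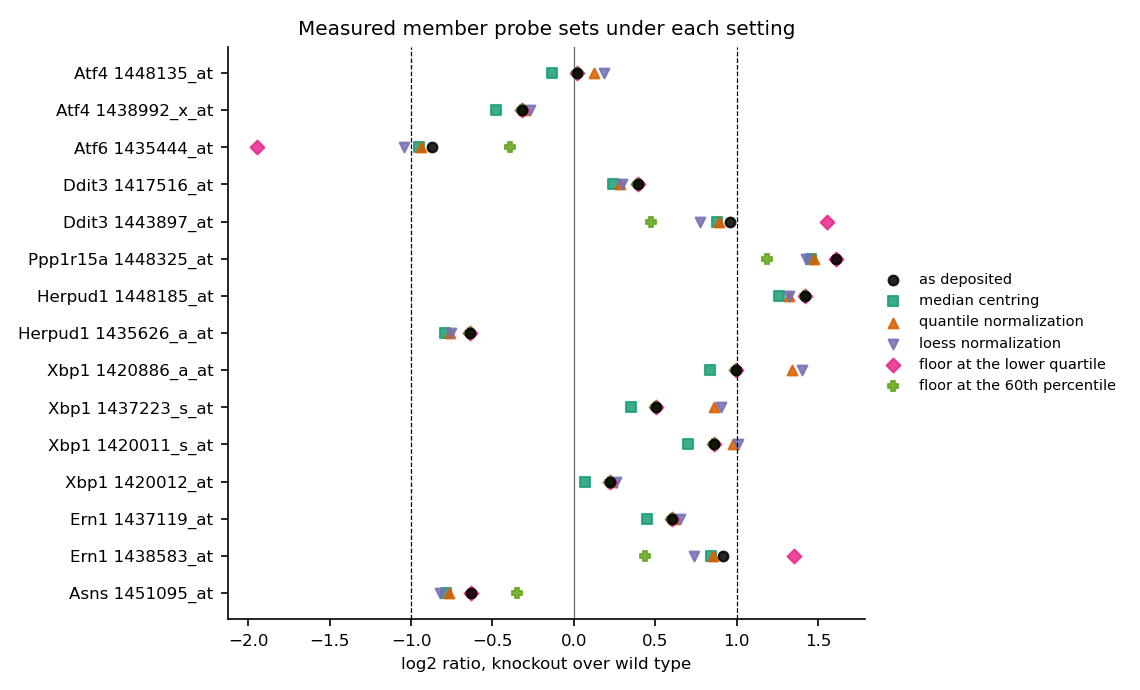
Log2 ratio of knockout over wild type for each measured probe set of the 10 genes (gene and probe set name on the vertical axis) in the deposited values and under 5 alternatives, shown also where the mean lies under that alternative's floor. The dashed lines mark 2-fold. The higher Herpud1 probe set and Ppp1r15a stay above 2-fold at every symbol shown, and only the brightest Atf4 probe set changes sign.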

How the data were processed

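Total RNA was prepared with TRIzol and amplified with biotin labelling, per the labels' protocols. The values deposited by the authors are linear intensities, 1 for each probe set and array. The submitters' processing notes name GCOS 1.4, with its settings not given in the sources used here. With 2% of values trimmed at each end, the mean was 1000 on either array, which shows a common scaling. Medians were 415 (knockout) and 373 (wild type) once the 64 control probe sets were left out. The scale is linear and nothing was centred by gene. Detection calls were not used here. Symbols came from the platform annotation, updated by gene identifier from RefSeq (GRCm38.p6). In the annotation used, 34958 probe sets had 1 symbol, 932 several and 9160 none.

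The floor, 2-fold limit, lists and alternatives were chosen with earlier results of these data known. Genes named are all 10 members with every probe set, up to the 4 highest and 4 lowest of each list past 2-fold, and a preset group of pathway genes. Marker genes, Eif2ak1, Eif2s1, Map3k5, Pdia4, and Slc7a5 as the fifth lower ATF4 target, are named beside these. Tried besides were centring on medians, quantile and loess normalization (span 0.3, statsmodels 0.14.6), a floor at the lower quartile or 60th percentile, leaving out probe sets of shared sequence (suffix _x_at or _s_at), and for lists the mean of a gene's probe sets. The script was tested on simulated data. The number of arrays limits the precision.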

Additional observations from a re-analysis of the deposited data

How the results depend on the processing

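Across the deposited values and 6 alternatives, the single Ppp1r15a probe set and the brighter Herpud1 probe set were at least 2-fold higher in all 7. The number of the 10 genes' probe sets at least 2-fold higher was 2 as deposited and 2 to 3 under 4 alternatives, 4 under loess normalization and 6 with a floor at the lower quartile. The number at least 2-fold lower was 0, but 1 under loess normalization (Atf6) and 3 with a floor at the lower quartile, where 21 of the 25 probe sets were measured in place of 15. Of these 9 calls at the lower floor, those of Trib3 and Ern1 went both ways between probe sets. The median of their log2 ratios ranged from 0.35 to 0.65, and was 0.39 without Xbp1, an alternative added after seeing the data. The spread of ratios between measured probe sets of 1 gene was 0.57 (SD over 4514 genes), and a value was taken as moved if it shifted by more than that. Of 87 single values 85 shifted by less, and the other 2 were Atf6 (-1.95) and the dimmer Ddit3 probe set (1.56) with the lower floor. List medians shifted by less than that spread under all alternatives run, but those of the eIF2, chaperone, degradation and sensor lists changed sign around 0. ATF4 targets at least 2-fold higher numbered 1 with the floor at the 60th percentile, against 4, and those 2-fold lower 3 with the mean of probe sets, against 5. In the bZIP list 0 were 2-fold higher with the floor at the 60th percentile, against 3, and 2 were 2-fold lower with the lower floor, against 1. With the lower floor 1 chaperone gene and 2 sensor genes were 2-fold higher, and with the mean of probe sets 0 chaperone genes were lower. No paired analysis was possible because each genotype has 1 array. Readings near the floor depend most on where it is set.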
